A study of Mus musculus with 2 samples.

Results

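The imprinted growth genes examined here are 10 named genes, Dlk1, Igf2, H19, Cdkn1c, Meg3, Peg3, Mest, Grb10, Plagl1 and Ndn, each of which is transcribed mainly from the copy inherited from 1 parent. They were followed through every probe set (the array's unit of measurement, several short probes for a transcript) to which the platform annotation gives that gene symbol and no other. This found 36 probe sets for 9 of the 10 genes, out of 34958 probe sets with 1 symbol for 18194 genes. H19 has no such probe set: the annotation lists it on 1 probe set that carries 2 symbols, H19 and the miRNA gene Mir675, so no value is given for it. The genes were chosen by their signals on these same arrays, above all the Ebf2-/- over Ebf2+/- ratios of Dlk1 and Igf2, so their ratios are given as a description.

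The Ebf2-/- group was 1 array of osteoblastic cells that came out of the hind limb long bones (tibia, femur) of C57Bl/6 mice lacking Ebf2 at E18.5, and the Ebf2+/- group was 1 array of the same preparation from heterozygous embryos. In both, cells were sorted by FDG staining for the lacZ marker of the Ebf2 locus and expanded in culture without passaging in alpha MEM with 10% FCS. Both groups therefore carry the marker allele, and neither is a wild type. Per the labels 3 mice stood behind a genotype, and whether their cells were pooled is not stated. Each value is a single measurement with no replicate check. Ebf2 itself was near background: its 3 probe sets read 20.6, 14.4 and 25.1 in Ebf2-/- cells, against 24.9, 13.7 and 14.4 in Ebf2+/- cells. None was above the floor on both arrays, so Ebf2 does not check the genotype labels, and every direction rests on the labels alone.

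In genomic imprinting, DNA methylation set in the germ line differs between the parental copies, and 1 copy of a gene is silenced. Such genes are read from a single copy and often lie in clusters. Many imprinted genes set fetal growth. As a textbook rule, paternally expressed genes such as Igf2, Dlk1, Peg3 and Mest favour growth, whereas maternally expressed ones such as Cdkn1c, Grb10 and the RNA H19 restrain it. In the skeleton, Dlk1 is known as preadipocyte factor 1, a membrane protein that holds mesenchymal precursors back from becoming adipocytes, and Igf2 is a major fetal growth factor of bone.

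Of the 9 genes with a probe set, 3 were past 2-fold on the higher side in Ebf2-/- cells relative to Ebf2+/- cells: Dlk1, Igf2 and Cdkn1c. No member was at least 2-fold lower by its brightest probe set, and 6 differed by less than 2-fold. Over all 11785 genes above background on at least 1 array, 6.30% were past 2-fold on the higher side and 3.46% on the lower side. The median log2 ratio (Ebf2-/- over Ebf2+/-) was 0.32 over the 9 members and 0.03 over all 11785 genes. By direction alone, 8 members were higher and 1, Peg3, was lower. Over all 11785 genes, 6135 were higher and 5650 lower. But with the arrays scaled to spike-in transcripts, 6 members were higher and 3 lower. That scaling lowers every log2 ratio by 0.18 and moves the median of all genes to -0.14. Over all genes it turns the split of 742 higher and 408 lower genes past 2-fold into 528 higher and 625 lower.

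**Figure D1:**
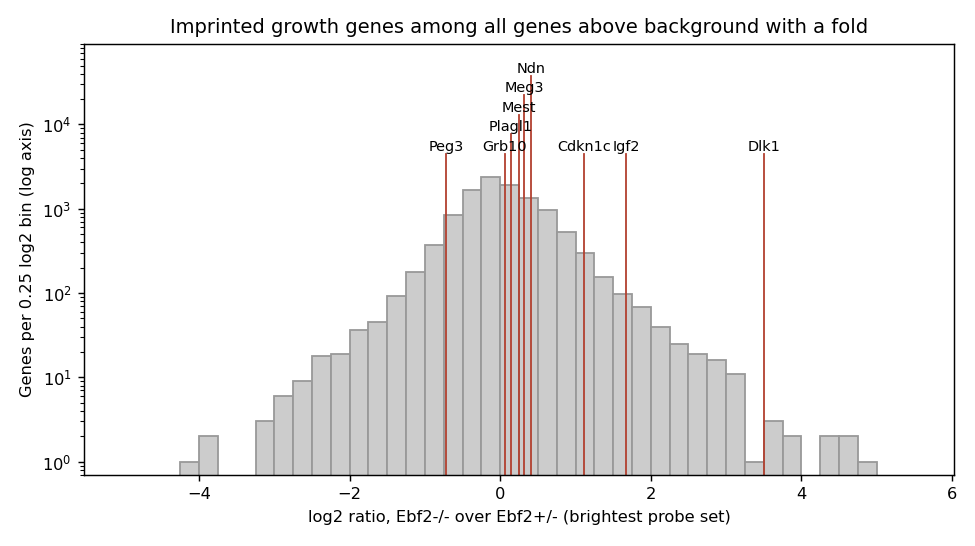
Number of genes (log axis) in each 0.25-wide bin of the log2 ratio of Ebf2-/- over Ebf2+/-, for genes above background that have a fold, with a line at the ratio of each imprinted growth gene (brightest probe set). Dlk1 at 3.50 lies in the sparse right tail, Igf2 at 1.67 and Cdkn1c at 1.11 on the right slope, and the other members lie between -0.72 and 0.41.

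The promoters of Dlk1, Igf2 and Peg3 are shown first, because imprinting acts through methylation of CpG dinucleotides. Dlk1 and Igf2 had the highest ratios of the members and Peg3 the lowest. Cdkn1c, also past 2-fold, has no listed promoter. Methylation was not measured, and whether these windows hold the methylated control regions was not tested. Each run holds 250 bases before and 50 after a RefSeq transcript start in build GRCm38.p6, 5′ to 3′ on the gene's own strand, with CpG dinucleotides in capitals. Igf2 has 4 listed starts, and its probe sets do not say which of them was in use.
Dlk1, chr12:109452573-109452872, plus strand: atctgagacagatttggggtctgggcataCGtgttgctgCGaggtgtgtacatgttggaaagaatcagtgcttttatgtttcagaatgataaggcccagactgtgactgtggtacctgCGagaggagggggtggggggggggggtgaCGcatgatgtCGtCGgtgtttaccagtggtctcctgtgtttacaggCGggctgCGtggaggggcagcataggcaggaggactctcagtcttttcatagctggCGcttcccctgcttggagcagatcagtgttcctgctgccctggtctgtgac
Igf2 upstream-most start, chr7:142666767-142667066, minus strand: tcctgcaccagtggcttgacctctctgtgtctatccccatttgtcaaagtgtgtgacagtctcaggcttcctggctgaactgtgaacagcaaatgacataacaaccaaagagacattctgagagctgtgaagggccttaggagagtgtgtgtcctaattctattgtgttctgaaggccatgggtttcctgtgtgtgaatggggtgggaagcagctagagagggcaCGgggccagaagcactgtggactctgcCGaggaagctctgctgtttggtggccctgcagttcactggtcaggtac
Igf2 next start, chr7:142661222-142661521, minus strand: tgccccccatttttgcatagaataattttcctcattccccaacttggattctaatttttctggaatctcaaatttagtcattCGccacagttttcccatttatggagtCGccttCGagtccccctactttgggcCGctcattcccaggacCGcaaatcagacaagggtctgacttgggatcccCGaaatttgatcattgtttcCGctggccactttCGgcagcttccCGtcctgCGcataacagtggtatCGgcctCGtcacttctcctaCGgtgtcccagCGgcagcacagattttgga
Igf2 following start, chr7:142658755-142659054, minus strand: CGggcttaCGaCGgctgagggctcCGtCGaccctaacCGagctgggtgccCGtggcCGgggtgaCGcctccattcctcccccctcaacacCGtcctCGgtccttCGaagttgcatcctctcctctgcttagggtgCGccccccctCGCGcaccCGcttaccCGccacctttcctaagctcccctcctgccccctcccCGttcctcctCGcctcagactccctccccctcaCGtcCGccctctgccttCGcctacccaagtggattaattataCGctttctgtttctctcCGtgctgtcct
Igf2 downstream-most start, chr7:142657447-142657746, minus strand: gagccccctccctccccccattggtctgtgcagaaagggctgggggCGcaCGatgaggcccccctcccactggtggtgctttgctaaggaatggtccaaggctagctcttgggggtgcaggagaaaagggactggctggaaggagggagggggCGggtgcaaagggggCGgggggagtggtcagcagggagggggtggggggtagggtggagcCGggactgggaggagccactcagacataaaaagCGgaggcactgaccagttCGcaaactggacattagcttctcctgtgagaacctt
Peg3, chr7:6730370-6730669, minus strand: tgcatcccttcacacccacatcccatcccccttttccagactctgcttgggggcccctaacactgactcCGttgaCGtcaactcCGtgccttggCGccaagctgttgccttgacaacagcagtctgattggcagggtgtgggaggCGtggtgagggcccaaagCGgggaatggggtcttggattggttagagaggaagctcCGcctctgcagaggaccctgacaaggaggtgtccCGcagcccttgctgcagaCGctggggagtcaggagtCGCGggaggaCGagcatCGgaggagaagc

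CpG content differed widely among them. The Dlk1 window held 9 CpG and the Peg3 window 13. The 4 Igf2 windows held 2, 14, 24 and 7 CpG from the upstream-most to the downstream-most start, against a median of 7 over all 32851 promoters of the same length. Across the 8 members with a listed promoter (15 windows), the count went from 1 at a Meg3 start to 45 at a Grb10 start, so a high CpG count was not shared by the members' windows. The 10-letter palindromic EBF consensus, which reads the same on both strands, was found in 1 of the 15 windows, at Grb10, and in 0.904% of all promoters. Its 8-letter core CCCNNGGG, which the longer form contains between a T and an A, was found in 5 windows of 3 genes, Grb10, Mest and Meg3, and in 13.7% of all promoters. Of those 5 windows 2 are overlapping Mest starts. The letters of either motif were not in the Dlk1, Igf2 or Peg3 windows.

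The secreted and membrane-bound growth regulators come first. Dlk1 encodes a transmembrane protein with EGF repeats, related to the Notch ligands and shed as a soluble form. Its brightest probe set read 914 in Ebf2-/- cells and 80.7 in Ebf2+/- cells, 11.3-fold higher (log2 ratio 3.50). Only 9 of the 11176 genes that have a fold had a higher ratio. Its other probe set read 15.7 in Ebf2-/- cells, under the floor of 23.8, and 13.9 in Ebf2+/- cells, under the floor of 17.8. The floor is the 95th percentile, on that array, of 86 probe sets for chemosensory receptors, which these cells are not known to use. The Dlk1 difference thus rests on a single probe set, and one of the _s_at kind, whose probes can match more than 1 transcript.

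Igf2 encodes insulin-like growth factor 2, the fetal ligand of the IGF1 receptor. Its brightest probe set read 2521 in Ebf2-/- cells and 793 in Ebf2+/- cells, 3.18-fold higher (log2 ratio 1.67). A higher ratio was seen for 1.97% of genes. The other Igf2 probe set was below the floor on both arrays, at 2.20 in Ebf2-/- cells and 11.0 in Ebf2+/- cells. Igf2 therefore also rests on 1 probe set, though a bright one on both arrays.

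Cdkn1c encodes p57, an inhibitor of cyclin-dependent kinases that holds cells in G1 and acts against growth. Its only probe set read 259 in Ebf2-/- cells and 120 in Ebf2+/- cells, 2.16-fold higher (log2 ratio 1.11). It was close to the 2-fold size and fell below it with spike-in scaling (log2 ratio 0.94) and with a pseudocount of 50 (0.86).

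Grb10 encodes an adaptor that binds the insulin and IGF1 receptors and dampens their signal. Its brightest probe set read 3468 in Ebf2-/- cells and 3325 in Ebf2+/- cells, a log2 ratio of 0.06 that turned to -0.11 with spike-in scaling and -0.06 with quantile normalization. A dimmer probe set read 74.6 in Ebf2-/- cells and 70.3 in Ebf2+/- cells. The last read 105 in Ebf2-/- cells and 61.6 in Ebf2+/- cells, 1.697-fold higher. No Grb10 probe set reached 2-fold.

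**Figure D2:**
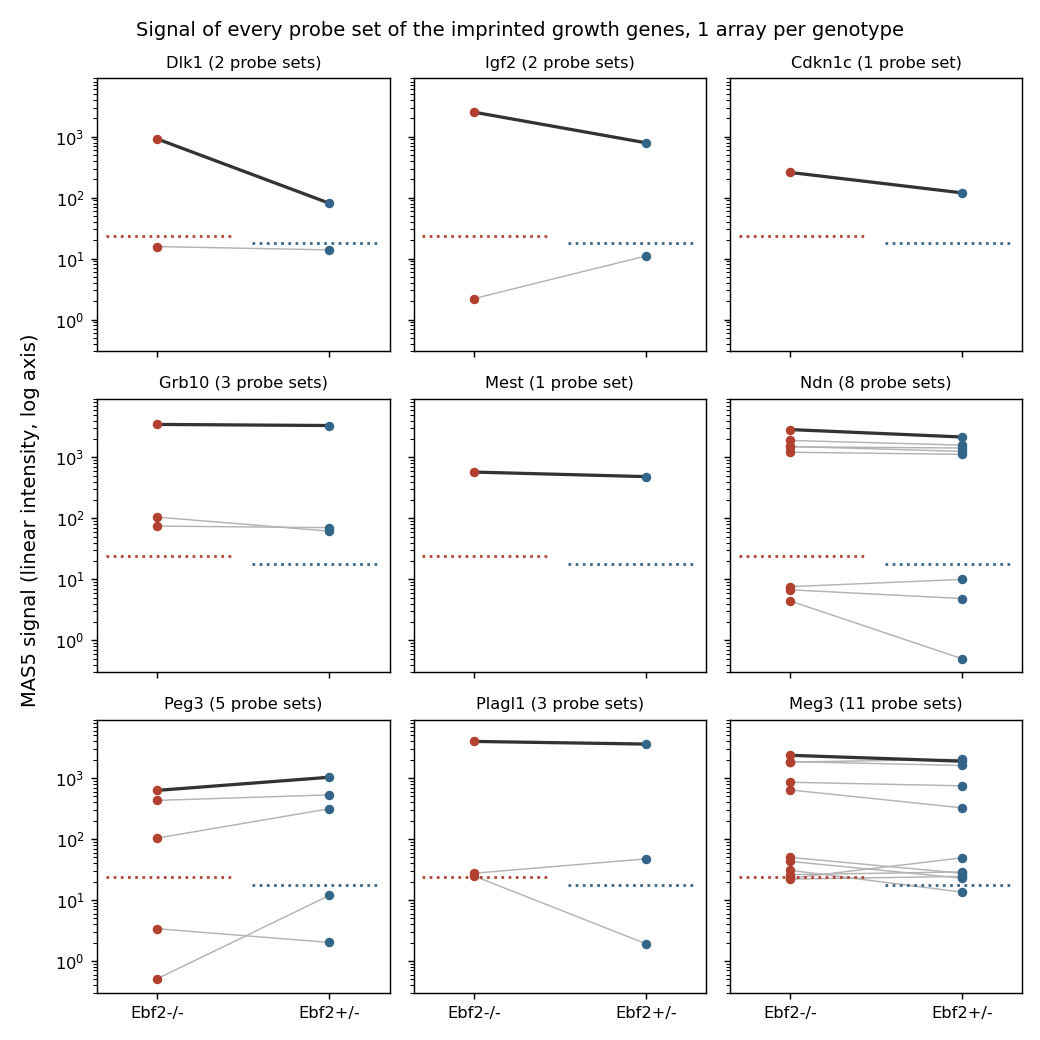
MAS5 signal (log axis) of all 36 probe sets in Ebf2-/- cells (left of each panel) and Ebf2+/- cells (right), 1 panel per gene, with a line joining the values of a probe set, the brightest one darker, and dotted lines at the floors of 23.8 and 17.8. The steepest dark lines belong to Dlk1, Igf2 and Cdkn1c, and each of these 3 genes has a single probe set above the floors.

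Among the nuclear proteins, Peg3, a large zinc finger protein of paternal origin, was the member whose probe sets were lower. The brightest read 629 in Ebf2-/- cells and 1032 in Ebf2+/- cells, 1.64-fold lower (log2 ratio -0.72). Another read 431 in Ebf2-/- cells and 531 in Ebf2+/- cells, 1.23-fold lower. The third read 104 in Ebf2-/- cells and 315 in Ebf2+/- cells, 3.03-fold lower. All 3 probe sets above the floor pointed the same way, but they differed in size from a log2 ratio of -0.30 to -1.60. The other 2 were below the floor on both arrays. By its brightest probe set, 7.71% of genes had a lower ratio than Peg3.

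Plagl1 (also known as Zac1) is a zinc finger transcription factor that blocks cell division and controls other imprinted genes in the mouse. Its brightest probe set read 3991 in Ebf2-/- cells and 3612 in Ebf2+/- cells, a log2 ratio of 0.14 that turned to -0.03 with spike-in scaling. A dim one read 27.5 in Ebf2-/- cells and 47.3 in Ebf2+/- cells, 1.72-fold lower. The other read 24.9 in Ebf2-/- cells and 1.92 in Ebf2+/- cells, and was at least 1.40-fold higher since the heterozygote value lay under the floor. The Plagl1 probe sets thus did not share a direction, with 2 higher and 1 lower. The 2 dim ones, which disagreed with each other, were near background in Ebf2-/- cells.

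Ndn encodes necdin, a MAGE family protein of post-mitotic cells that binds E2F1 and is lost in Prader-Willi syndrome in humans. Its 5 bright probe sets read between 1212 and 2855 in Ebf2-/- cells and between 1120 and 2156 in Ebf2+/- cells. All 5 were slightly higher in Ebf2-/- cells, by log2 ratios between 0.07 and 0.41, with an SD of 0.14 between probe sets. With spike-in scaling 3 of the 5 were higher and 2 lower. The other 3 Ndn probe sets were below the floor on both arrays. Mest, a paternally expressed member of the alpha/beta hydrolase fold family, read 574 in Ebf2-/- cells and 483 in Ebf2+/- cells on its only probe set, a log2 ratio of 0.25.

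Meg3 is a maternally expressed long non-coding RNA that neighbours Dlk1 and is read from the opposite parental copy. It had 11 probe sets, the most of any member. The brightest read 2364 in Ebf2-/- cells and 1891 in Ebf2+/- cells, a log2 ratio of 0.32. Of the 4 other bright probe sets, 3 read 1862, 854 and 638 in Ebf2-/- cells against 1609, 746 and 325 in Ebf2+/- cells. The fourth read 1830 in Ebf2-/- cells and 2032 in Ebf2+/- cells. The bright Meg3 probe sets thus ran from a log2 ratio of -0.15 to 0.97, all under 2-fold. The 6 dim ones read between 22.02 and 49.999 in Ebf2-/- cells and between 13.5 and 49.3 in Ebf2+/- cells, and 1 of them was at least 2.07-fold lower. Over the 8 Meg3 probe sets above the floor on both arrays the SD of the log2 ratio was 0.46, close to the pooled SD of 0.44 between probe sets of 1 gene over 4119 genes.

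Counted by probe set, 29 of the 36 were above the floor on at least 1 array, 25 of them on both. Of the 29, 3 were past 2-fold on the higher side in Ebf2-/- cells and 2 on the lower side. The shares over all 20401 such probe sets were 6.58% higher and 3.61% lower. The median log2 ratio of the 29 was 0.21, and that of all such probe sets 0.04. Members of either parental origin were found on the higher side: 2 of the 6 paternally expressed members (Dlk1 and Igf2) and 1 of the 3 measured maternally expressed ones (Cdkn1c) were past 2-fold, with median log2 ratios of 0.33 and 0.32.

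**Figure D3:**
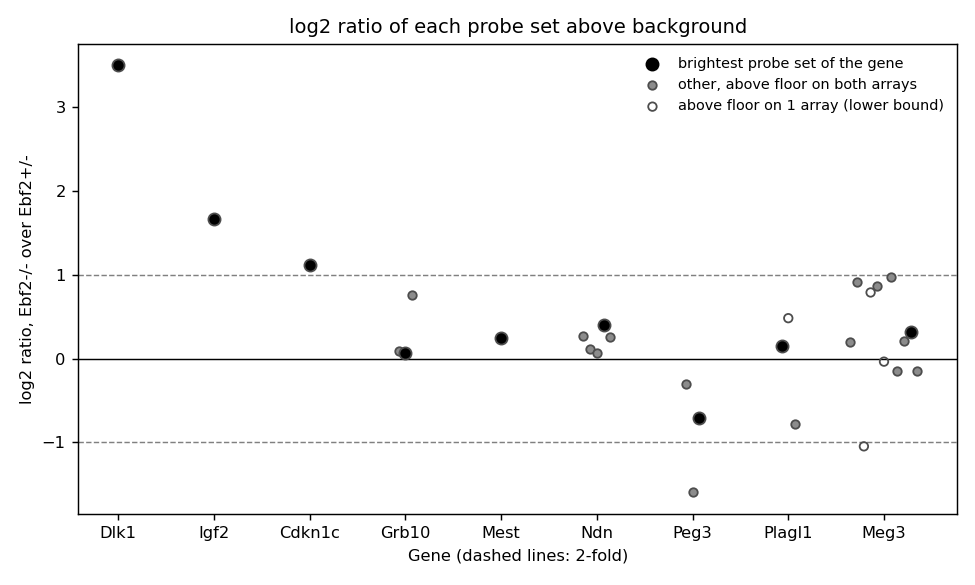
log2 ratio of Ebf2-/- over Ebf2+/- for each of the 29 probe sets above background on at least 1 array, by gene, with the brightest probe set of a gene in black and open circles for lower bounds. Dlk1, Igf2 and Cdkn1c stand above the upper 2-fold line, all 3 Peg3 points lie below 0, and Meg3 points spread on both sides.

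The neighbours of the members on their chromosomes were described next, since imprinted genes are often controlled as clusters. Dlk1 and Meg3 lie next to each other on chromosome 12, followed by the maternally expressed non-coding RNAs Rian and Mirg. Rian read 68.9 in Ebf2-/- cells and 219 in Ebf2+/- cells on its brightest probe set, 3.17-fold lower. Its other probe sets gave 1.496-fold lower, at least 1.53-fold lower and, on a dim one, at least 1.56-fold higher. Mirg read 67.7 in Ebf2-/- cells and 35.02 in Ebf2+/- cells, 1.93-fold higher, and its other, dim probe set was at least 2.47-fold higher. The 4 genes of this cluster thus had ratios from 11.3-fold higher for Dlk1 to 3.17-fold lower for Rian, and the maternally expressed RNAs did not share a direction.

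Outside the cluster, Wars, on the far side of Dlk1, read 226 in Ebf2-/- cells and 287 in Ebf2+/- cells. Beside Igf2 on chromosome 7, the mitochondrial ribosome gene Mrpl23 read 617 in Ebf2-/- cells and 713 in Ebf2+/- cells. The antisense gene Igf2os and the insulin gene Ins2 were below the floor on both arrays. Next to Cdkn1c, Kcnq1ot1, the non-coding RNA that silences that cluster on the paternal copy, read 77.5 in Ebf2-/- cells and 77.7 in Ebf2+/- cells. In all, 48 neighbours (the 3 nearest on each side with a probe set, members left out) were on the arrays and 22 were above background. None of the 22 was past 2-fold on the higher side and 1, Rian, was on the lower side (4.55%). The shares over all genes were 6.30% higher and 3.46% lower. Their median log2 ratio was -0.14.

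A list of 52 other imprinted genes had 44 on the arrays and 29 above background. Rian, already counted among the neighbours, was the 1 gene past 2-fold, on the lower side (3.45%), and 0 were past it on the higher side. The shares over all genes were 6.30% higher and 3.46% lower. The list's median log2 ratio was -0.02. Copg2, the neighbour of Mest, read 66.9 in Ebf2-/- cells and 133 in Ebf2+/- cells, 1.99-fold lower. Gnas, the stimulatory G protein subunit, read 8071 in Ebf2-/- cells and 5806 in Ebf2+/- cells, and the sarcoglycan Sgce 1007 in Ebf2-/- cells and 662 in Ebf2+/- cells. Igf2r, the receptor that takes IGF2 up for breakdown, read 370 in Ebf2-/- cells and 375 in Ebf2+/- cells.

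Partners of the members' products were listed by function. Over all genes, 6.30% were past 2-fold on the higher side and 3.46% on the lower side. Of 10 measured genes around IGF2 and GRB10, 2 passed 2-fold on the higher side in Ebf2-/- cells and 0 on the lower, and the list's median log2 ratio was -0.02. Igf1, the other ligand of the IGF1 receptor, read 1700 in Ebf2-/- cells and 678 in Ebf2+/- cells, 2.51-fold higher, with 1.305-fold to 1.93-fold higher signal on its other 3 probe sets. Gigyf1, a GRB10-binding protein, read 96.3 in Ebf2-/- cells and 47.6 in Ebf2+/- cells, 2.02-fold higher, and was under 2-fold with spike-in, quantile or lowess scaling and with the pseudocount. Igf1 was under 2-fold as a mean over its probe sets. The receptor Igf1r read 602 in Ebf2-/- cells and 691 in Ebf2+/- cells. The ligands Igf2 and Igf1 were thus past 2-fold by their brightest probe sets, while the receptors Igf1r and Igf2r differed by less than 1.15-fold on theirs. A dim Igf1r probe set, above the floor in Ebf2-/- cells alone, was at least 2.12-fold higher.

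Of 12 measured cell cycle partners and relatives of CDKN1C, 1, Cdk6, passed 2-fold, on the lower side (8.33%, against 3.46% of all genes). The list's median log2 ratio was 0.08. Cdk6, a G1 kinase, read 87.8 in Ebf2-/- cells and 215 in Ebf2+/- cells, 2.45-fold lower. It was under 2-fold with the pseudocount and as a mean over all probe sets. Cyclin D1, Ccnd1, read 1782 in Ebf2-/- cells and 3401 in Ebf2+/- cells, 1.91-fold lower (past 2-fold with spike-in scaling), and 1.40-fold and 1.10-fold lower on its other probe sets. The related inhibitors Cdkn1a and Cdkn1b differed by log2 ratios of -0.65 and 0.68, both short of 2-fold. Of 6 measured partners and relatives of necdin, PEG3 and PLAGL1, 0 passed 2-fold in either direction (median log2 ratio 0.32).

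Of 14 measured genes tied to DLK1, Notch signalling and preadipocytes, 5 passed 2-fold on the higher side (35.7%) and 0 on the lower. Over all genes the shares were 6.30% higher and 3.46% lower. The list's median log2 ratio was 0.80. With spike-in scaling 3 of the 5 stayed past 2-fold (Cebpa, Cebpd and Zfp423), and with a pseudocount of 50 only 2 (Cebpa and Cebpd). Cebpa and Pparg also stand in the adipocyte marker list. Cebpa, an adipogenic transcription factor, read 350 in Ebf2-/- cells and 39.2 in Ebf2+/- cells, 8.91-fold higher. Cebpd, an early adipogenic factor, read 1103 in Ebf2-/- cells and 325 in Ebf2+/- cells, 3.40-fold higher. Zfp423 was 2.27-fold, Pparg 2.15-fold and the receptor Notch3 2.01-fold higher. Sox9, a transcription factor through which DLK1 is reported to hold precursors in mice, read 209 in Ebf2-/- cells and 213 in Ebf2+/- cells. Of 9 measured genes that set or keep DNA methylation imprints, 1 passed 2-fold, on the higher side: Tet1, a methylcytosine dioxygenase, at 48.1 in Ebf2-/- cells and 14.9, under the floor, in Ebf2+/- cells. It too was under 2-fold with the pseudocount and as a mean over all probe sets. The maintenance methyltransferase Dnmt1 read 387 in Ebf2-/- cells and 247 in Ebf2+/- cells.

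**Figure D4:**
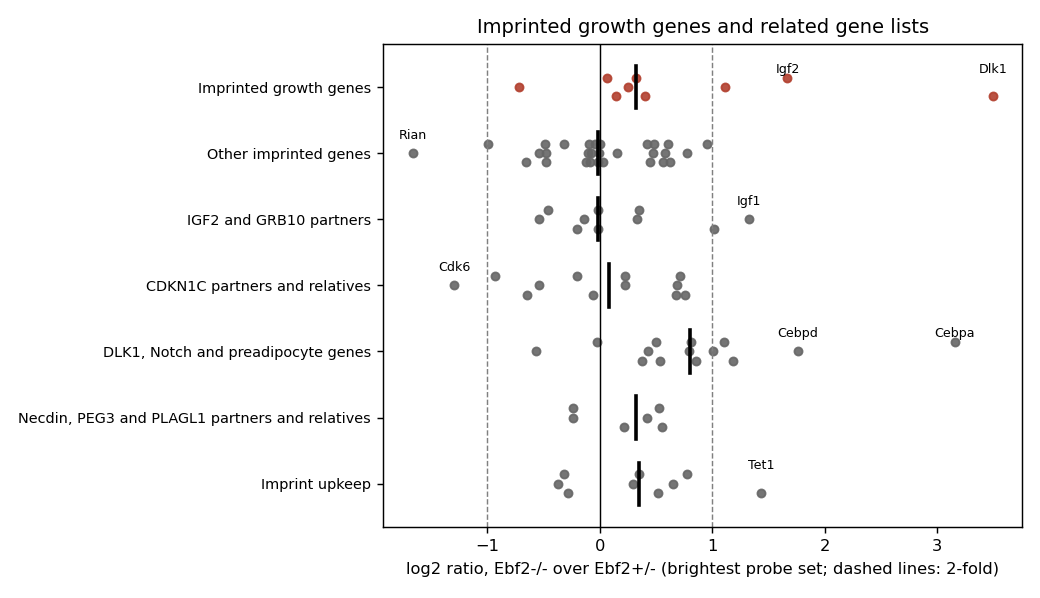
log2 ratio of Ebf2-/- over Ebf2+/- for each gene above background (brightest probe set) in the imprinted growth genes (red) and in 6 related lists (grey), with black bars at the medians. The medians are 0.32 for the imprinted growth genes, -0.02 for other imprinted genes and 0.80 for the DLK1, Notch and preadipocyte genes.

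Cell type markers also differed between the arrays. In RNA from a mixed culture, fewer cells of a type and less RNA per cell cannot be told apart. Past 2-fold, the shares over all genes were 6.30% higher and 3.46% lower. Of the 12 osteoblast markers 9 had a probe set and 6 were above background, among them Col1a1, Sparc and Sp7, while Ibsp, Dmp1 and Phex, genes of mature osteoblasts and osteocytes, were below the floor on both arrays. Of the 6, 5 were higher in Ebf2-/- cells, 2 of them past 2-fold: Col1a1 by 2.33-fold and Alpl by 2.04-fold. Sp7 was lower, at 53.3 in Ebf2-/- cells and 83.7 in Ebf2+/- cells, 1.57-fold. With spike-in, quantile or lowess scaling and with the pseudocount Col1a1 alone stayed past 2-fold. As a mean over all probe sets, or over those above the floor on at least 1 array, Alpl alone did. The 1 other Col1a1 probe set above background did not share its direction. The osteoblast list summed to 45609 in Ebf2-/- cells and 26349.6 in Ebf2+/- cells. Most of both sums came from Sparc, Col1a2 and Col1a1. These read 17570, 15008 and 12784 in Ebf2-/- cells and 12049, 8597 and 5478 in Ebf2+/- cells. Of 6 fibroblast markers 5 were at least 2-fold higher in Ebf2-/- cells, with a summed signal of 27787 in Ebf2-/- cells and 10404 in Ebf2+/- cells. Of 6 measured adipocyte markers 5 were at least 2-fold higher and Cd36 was lower (summed over the list, 2904 in Ebf2-/- cells and 822 in Ebf2+/- cells). All 11 measured macrophage and leukocyte markers were at least 2-fold lower (1786 in Ebf2-/- cells and 7647 in Ebf2+/- cells), as were 6 of 9 chondrocyte markers (3773 in Ebf2-/- cells and 12570.0 in Ebf2+/- cells) and 3 of 5 Schwann cell and neuron markers (319 in Ebf2-/- cells and 695 in Ebf2+/- cells). Gap43, in the Schwann cell and neuron list, went the other way. It read 64.7 in Ebf2-/- cells and 30.03 in Ebf2+/- cells, 2.16-fold higher. With spike-in scaling and with the pseudocount Gap43 was under 2-fold. The part of these marker shifts in the Dlk1, Igf2, Cdkn1c and Peg3 values was not tested. Of 10 skeletal muscle markers 8, Myod1, Myf5, Myog and Pax7 among them, were below the floor on both arrays. Acta1, skeletal muscle actin and the 1 marker of this list above it on both, read 105 in Ebf2-/- cells and 45.03 in Ebf2+/- cells, 2.32-fold higher, and was under 2-fold with the pseudocount. The muscle list summed to 172 in Ebf2-/- cells and 91.5 in Ebf2+/- cells, and its part in the Dlk1 and Igf2 values was not tested. Of 6 endothelial markers 4, and all 3 erythroid markers with a probe set, were below it as well. Tek, an endothelial marker above the floor in Ebf2-/- cells alone, was at least 2.61-fold higher. It was under 2-fold with lowess scaling and with the pseudocount. Kdr, above the floor in Ebf2+/- cells alone, was at least 1.42-fold lower. The beta-actin ratio of 3′ over 5′ control signal, a sign of RNA integrity, was 2.79 in Ebf2-/- cells and 1.97 in Ebf2+/- cells.

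The genes whose signals on both arrays lay closest to those of Dlk1 were, out of 10056 above the floor on both, Serping1, Lgr5 and Mfap4, at distances of 0.42, 0.45 and 0.49 in log2 signal. Those closest to Igf2 were Islr, Mfap5 and Adamts5, at 0.22, 0.24 and 0.33. With 2 arrays this likeness covers 2 values per gene, and signals of different probe sets are not amounts of transcript.

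**Figure D5:**
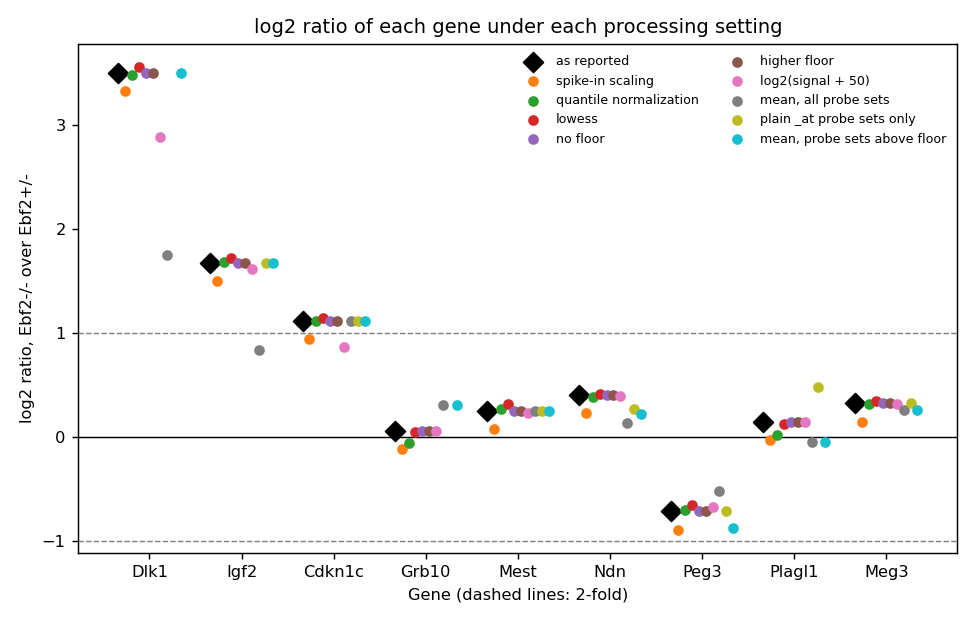
log2 ratio of Ebf2-/- over Ebf2+/- for each imprinted growth gene as reported (black diamonds) and under 9 other processing settings (coloured points). Dlk1 ranges from 1.75 to 3.55 and Peg3 from -0.89 to -0.52, while Grb10 and Plagl1 lie on both sides of 0.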

How the data were processed

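RNA of lacZ-sorted osteoblastic cells was measured on 2 Affymetrix mouse expression arrays, 1 for each genotype. The deposited values are linear intensities that the authors made with MAS5, per the submitters' processing notes. After removing the lowest and highest 2% of values the mean intensity was 100.0 on both arrays, so the deposited values carry a common scale.

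Gene names came from the platform annotation. Each gene was read from its brightest probe set (by log2 signal averaged over both arrays), giving 18194 genes. The floor was the 95th percentile of 86 chemosensory receptor probe sets (olfactory, vomeronasal, taste). Signals under it were set to it before the log2 ratio of Ebf2-/- over Ebf2+/- was taken. A ratio from a gene above the floor on 1 array only is a lower bound. Where such a signal did not exceed the other array's floor, no fold is given. The floor-set ratio was run on simulated data with large known changes in bright genes. That run did not cover changes near 2-fold or signals near the floor.

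There was no replicate, so no test was run and no p-value is given. Members and lists were chosen with earlier results of these data known. Every probe set of every member is reported. From the other lists, cell type markers apart, the text gives members past 2-fold, up to 5 per direction. The marker lists are given mainly as counts and sums. Any other named gene was chosen after its values were seen. Alternatives were scaling (spike-in, quantile, lowess), no floor, a higher floor, a pseudocount of 50 and other choices of probe set. Promoter sequences are RefSeq's, build GRCm38.p6. Analysis used Python 3.11.15, pandas 2.3.3 and statsmodels 0.14.6.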

Additional observations from a re-analysis of the deposited data

How the results depend on the processing

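Across 9 other settings, 1 of them (the mean over probe sets above the floor) chosen after seeing the data, the number of imprinted growth genes at least 2-fold higher in Ebf2-/- cells was 3 or 2, and the number at least 2-fold lower was 0 in each. Cdkn1c was under 2-fold with spike-in scaling and the pseudocount of 50. Igf2 was so as a mean over all probe sets (log2 ratio 0.83), where its dim probe set enters at 0. With probe sets of the plain _at kind alone, Dlk1 had no fold, because the remaining one was below the floor, and Grb10 had no probe set. The ratio of Dlk1 was 1.75 as a mean over all probe sets and 2.88 with the pseudocount. Grb10 and Plagl1 changed sign under some settings. The median of the members ranged from 0.15 with spike-in scaling to 0.35 after lowess.

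Of the other imprinted genes, the 1 that was at least 2-fold lower became 2 with spike-in, quantile or lowess scaling, 4 without a floor and 0 with either mean over probe sets. The 0 that were at least 2-fold higher became 2 without a floor and 2 with either mean. Over all genes past 2-fold, 742 were higher and 408 lower as reported, against 280 and 134 with the pseudocount, 997 and 932 without a floor, 528 and 625 with spike-in scaling and 502 and 244 as means over all probe sets. No paired analysis was possible because each genotype has 1 array. The other lists were recounted under the same settings after seeing the data. Of the marker lists, the fibroblast list had 5 or 4 genes past 2-fold on the higher side and the adipocyte list 5, 4 or 3. On the lower side, the macrophage and leukocyte list had 11, 10 or 9 and the chondrocyte list between 5 and 7. The Schwann cell and neuron list had 3 there, or 1 with the pseudocount. The adipocyte 3 and the macrophage 9 came from plain _at probe sets alone, where 4 and 9 genes of those lists were measured. The number of arrays limits every value, and the dim Meg3 and Plagl1 probe sets also lie near the floor.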
